A study of Homo sapiens with 12 samples.

Results

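The genes that encode the factors of translation initiation and elongation were followed in MDA-MB-231 cells, an established human line that models triple-negative breast cancer. Members were taken by name, as every symbol in the count tables that starts with EIF or EEF followed by a digit. There were 69 such symbols among 16384, and 67 had enough reads to be tested. The 2 that were not tested were EIF4E1B, a cap-binding protein known from germ cells and listed at 0 in all libraries but DMSO replicate 2, and EIF4EBP3, a binding protein of eIF4E that lay between 0 and 0.233 CPM. Levels are given as CPM, which are counts scaled to the library size after TMM adjustment, and differences are log2 fold changes, with their standard errors (SE). A gene was called where edgeR's quasi-likelihood test gave a Benjamini-Hochberg adjusted p under 0.05 over all 12645 genes tested.

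RNA was sequenced from 12 libraries, 3 in each of 4 groups, and every group carried the label of a wild-type genotype. The CAR group received 10 µmol/L of an agent that the series title identifies as cardamonin, a plant chalcone. Cells of the JQ1 group were given JQ1 at 25 µmol/L, an inhibitor that keeps the BET bromodomain proteins off acetylated histones. The Combination group received both agents at those doses, and the DMSO group received the vehicle. The time of exposure is not given in the sources used here. Nothing in the labels says whether the 3 libraries of a group came from separate cultures, so each p-value measures only the spread between these libraries, which may be technical.

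Initiation begins when eIF2 brings the initiator tRNA to the small ribosomal subunit, which also carries eIF1, eIF1A, eIF3 and eIF5. The eIF4F complex, made of the cap-binding protein eIF4E, the scaffold eIF4G and the helicase eIF4A, recruits this assembly to the mRNA cap. Kinases that phosphorylate eIF2 and binding proteins that hold eIF4E back both lower initiation, and in elongation eEF1A delivers aminoacyl-tRNA while eEF2 moves the ribosome along.

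Many mRNAs for the translation machinery start with a C followed by a run of pyrimidines, a tract through which mTORC1 and LARP1 are known to control their translation. Promoter entries in RefSeq, on GRCh38.p14, were matched for 54 of the 69 members. Those without an entry were EEF1A2, EEF1AKMT1, EEF1AKMT3, EEF1AKNMT, EEF1D, EEF2KMT, EIF2AK1, EIF2S2, EIF3A, EIF3CL, EIF3E, EIF3G, EIF3H, EIF3L and EIF4EBP1. A start with C and at least 4 further pyrimidines was present in 13 of the 54 members, or 24.1%, and in 5.14% of 27305 genes with an entry. Here and for the motifs below, the 27305 genes include many outside the 16384 symbols of the count tables and were not matched for expression. A gene counted if any of its starts matched, and the 54 members had 71 entries. These 13 starts are shown because all 13 members were called higher in CAR cells. Each line has 15 bases on either side of the annotated start, read 5′ to 3′ on the strand of the gene, with the tract in capitals.
EEF1A1, chr6:73521018-73521047, minus strand: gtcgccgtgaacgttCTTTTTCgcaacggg
EEF1B2, chr2:206159880-206159909, plus strand: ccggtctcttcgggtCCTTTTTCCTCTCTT
EEF2, chr19:3985449-3985478, minus strand: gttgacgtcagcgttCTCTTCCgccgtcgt
EIF2A, chr3:150546772-150546801, plus strand: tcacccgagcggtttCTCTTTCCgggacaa
EIF2D, chr1:206612451-206612480, minus strand: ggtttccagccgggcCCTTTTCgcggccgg
EIF2S3, chrX:24054941-24054970, plus strand: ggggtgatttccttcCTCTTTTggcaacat
EIF2S3B, chr12:10505875-10505904, plus strand: ggggtgactttcttcCTCTTTTggcaacat
EIF3D, chr22:36529152-36529181, minus strand: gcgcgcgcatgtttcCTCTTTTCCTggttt
EIF3F, chr11:7987322-7987351, plus strand: ttccgcttccgcctcCTTCTTTCTCgacaa
EIF3K, chr19:38619173-38619202, plus strand: ttccgtttccaccacCTCTTCCTgttcccg
EIF3M, chr11:32583816-32583845, plus strand: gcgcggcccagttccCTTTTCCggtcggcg
EIF4A2, chr3:186783562-186783591, plus strand: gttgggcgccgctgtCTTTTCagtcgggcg
EIF4B, chr12:53006441-53006470, plus strand: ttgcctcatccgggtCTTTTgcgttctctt

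The 250 bases before the start were searched on both strands for 4 further motifs. The E-box CACGTG, a sequence bound by MYC with MAX and by USF factors, was in 14 of the 54 members, or 25.9%, and in 7.73% of all 27305 genes. CCAAT was in 24 members, or 44.4%, and in 37% of all genes, and the antioxidant response core TGACNNNGC in 12, or 22.2%, and in 13.2% of all genes. TGATGCAA, the composite site of ATF4 and C/EBP factors, was in 0 of the 54 and in 0.967% of all genes. A match is a description of these letters and not a site. The upstream sequences of EIF4A3, EIF4E and EIF4G1 are printed here because they hold an E-box and the genes were called higher, called lower and not called, in that order, in JQ1 cells. EIF4A3 has its match 121 bases before the start, EIF4E has matches at 225 and 72 bases, and EIF4G1 at 144 and 67 bases, all in capitals.
EIF4A3, chr17:80147129-80147378, minus strand: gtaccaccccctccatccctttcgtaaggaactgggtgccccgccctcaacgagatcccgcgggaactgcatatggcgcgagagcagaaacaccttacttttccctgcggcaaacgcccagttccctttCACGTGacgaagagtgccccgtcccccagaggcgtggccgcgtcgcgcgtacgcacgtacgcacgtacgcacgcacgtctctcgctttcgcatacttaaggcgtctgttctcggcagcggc
EIF4E, chr4:98929134-98929383, minus strand: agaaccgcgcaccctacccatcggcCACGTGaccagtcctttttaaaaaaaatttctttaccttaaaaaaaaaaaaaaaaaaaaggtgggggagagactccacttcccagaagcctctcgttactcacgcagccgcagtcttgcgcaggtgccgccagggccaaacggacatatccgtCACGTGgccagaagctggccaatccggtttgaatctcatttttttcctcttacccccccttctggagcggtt
EIF4G1, chr3:184314356-184314605, plus strand: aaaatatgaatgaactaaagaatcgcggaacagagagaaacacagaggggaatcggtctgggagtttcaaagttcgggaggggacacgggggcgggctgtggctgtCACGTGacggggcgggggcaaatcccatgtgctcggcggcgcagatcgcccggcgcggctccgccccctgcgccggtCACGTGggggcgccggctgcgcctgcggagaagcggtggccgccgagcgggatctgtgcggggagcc

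Libraries held 17449715 to 19754456 counts, and the floor of 3 counts lay at 0.152 to 0.172 CPM, a limit that covers counting error only. VIM, CD44, EGFR and FOSL1 were present in every library, while ESR1, PGR and CDH1 had at most 13 counts, as is known for MDA-MB-231, and ERBB2 had 1858 to 2764. In the list of leukocyte, endothelial and fibroblast transcripts, 9 of 11 were in the tables and nearly all counts were of CD68, with the summed level at 198 to 204 CPM in CAR, 90.5 to 96.3 in JQ1, 149 to 168 in Combination and 125 to 135 in DMSO libraries. Beside CD68, PECAM1 had at most 16 counts in any library and the others at most 7, with PTPRC at most 1 and LYZ at most 3. DMSO replicate 3 stood apart from its group, with a Spearman correlation across 6144 genes of −0.737 between transcript length and deviation from the group mean, against 0.606 and 0.652 in the other DMSO libraries and −0.28 to 0.26 in the treated ones. Combination replicate 1 held all 15 of a list of liver transcripts at a summed 3165 counts, against 27 to 75 in the other libraries. Member counts without either library are given beside the results. For those fits the shares of all genes called were not counted. Which cells carried CD68, and the part of liver RNA or of length bias in single values, was not tested.

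CAR-treated cells carried higher levels of most factor genes than DMSO cells. Of the 67 members tested, 50 were called higher and 4 lower, while 27.3% of all genes tested were called higher and 30.1% lower (57.3% in either direction). The median member had a log2 fold change of 0.27, against −0.02 over all genes, and of the called members only EEF1AKMT4 passed a doubling. EIF3CL, not called, had 1.98 (SE 0.77, edgeR adjusted p = 0.055). Its levels were 7.77, 40.0 and 5.88 CPM in CAR and 3.45, 5.85 and 4.30 CPM in DMSO cells. The value thus rests on CAR replicate 2, and the ranges were apart only by 5.88 against 5.85 CPM. Reads can be split between EIF3CL and its copy EIF3C, so it is not interpreted. In the other direction stood EIF4EBP2, EIF2AK1, EIF4E2 and EIF1AD. CAR and DMSO libraries did not overlap in 51 members, beside 59.9% of all genes. Without DMSO replicate 3, 51 members were called higher and 4 lower. In bulk RNA, a lower level per cell and fewer cells that express a gene cannot be told apart.

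JQ1-treated cells showed a mixed picture with more members down than up. Against DMSO cells, 16 members were called higher and 34 lower, beside 41.5% and 42.2% of all genes (83.7% in either direction). The median member lay at −0.17 and the median gene at −0.01. The median size of change, without its sign, was 0.37 among members and 0.60 over all genes. JQ1 and DMSO libraries did not overlap in 50 members, beside 83.2% of all genes. Leaving out DMSO replicate 3 gave 17 called higher and 33 lower.

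Combination cells differed from DMSO cells in 24 members called higher and 29 lower, beside 42.6% and 42.8% of all genes (85.4% in either direction), with a median of −0.01 for members and 0.00 for all genes. Against JQ1 cells, which shows what CAR added on top of JQ1, 35 members were called higher and 6 lower in Combination cells, beside 26.0% and 25.9% of all genes (51.9% in either direction), with a member median of 0.14 and a gene median of 0.00. Against CAR cells, which shows what JQ1 added on top of CAR, 17 were called higher and 38 lower, beside 42.4% and 43.0% of all genes (85.4% in either direction), with a member median of −0.23. Combination libraries did not overlap those of DMSO in 50 members, those of JQ1 in 48 and those of CAR in 56, beside 84.8%, 62.3% and 87.4% of all genes. Without Combination replicate 1 the counts of calls were 24 and 27 against DMSO, 30 and 4 against JQ1, and 17 and 37 against CAR. Without DMSO replicate 3, 28 were higher and 28 lower against DMSO, and without Combination replicate 2, 3 members were called lower against JQ1. The comparisons with DMSO share the DMSO libraries, and those of the Combination group share the Combination libraries.

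Scaling by total counts in place of TMM shifted the median of all genes by −0.06 in CAR, −0.12 in JQ1 and −0.21 in Combination cells against DMSO, by −0.09 in Combination against JQ1 and by −0.14 in Combination against CAR cells. On that scale the calls among members were 41 higher and 5 lower for CAR, 14 and 42 for JQ1, and 18 and 37 for Combination against DMSO. They were 18 and 13 in Combination against JQ1 cells, and 11 and 44 in Combination against CAR cells. Calls that this scaling ended, with no change of sign, were EIF1B (0.17), EIF2B1 (0.11), EIF2B4 (0.09), EIF2S3B (0.38), EIF3F (0.11), EIF3L (0.07), EIF4EBP1 (0.13), EIF5A2 (0.14) and EEF1AKMT1 (0.34) in CAR cells, EIF3B (0.03) in JQ1 cells, and EIF4H (0.04) and EIF5 (0.02) in Combination against DMSO cells. In Combination against CAR cells they were EIF2B3 (0.03), EIF2B5 (0.07), EIF3L (0.02) and EIF4ENIF1 (0.06). In Combination against JQ1 cells 17 calls ended, those of EEF1D, EEF2, EIF2A, EIF2AK2, EIF2AK3, EIF2B2, EIF2B4, EIF2B5, EIF2S2, EIF3E, EIF3G, EIF3H, EIF3I, EIF3M, EIF4B and EIF4EBP2, all at 0.03 to 0.11, and that of EIF2S3B at 0.39. Calls gained on total counts included, beside those given with EIF4A1, EIF4G1 and EIF2AK3 against DMSO, EEF2K (−0.27) and EIF4A2 (−0.10) in Combination against JQ1 cells, and EIF3A (−0.20) and EIF4G1 (−0.15) in Combination against CAR cells, all lower. Over all genes, the share of calls that were higher also fell on total counts. It was 35.7%, against 47.6% on TMM, in CAR, 43%, against 49.6%, in JQ1 and 39.3%, against 49.9%, in Combination against DMSO cells. In Combination against JQ1 cells it was 32.9%, against 50.1%, and in Combination against CAR cells 43%, against 49.6%. The share of all tested genes called on that scale was not counted.

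**Figure D1:**
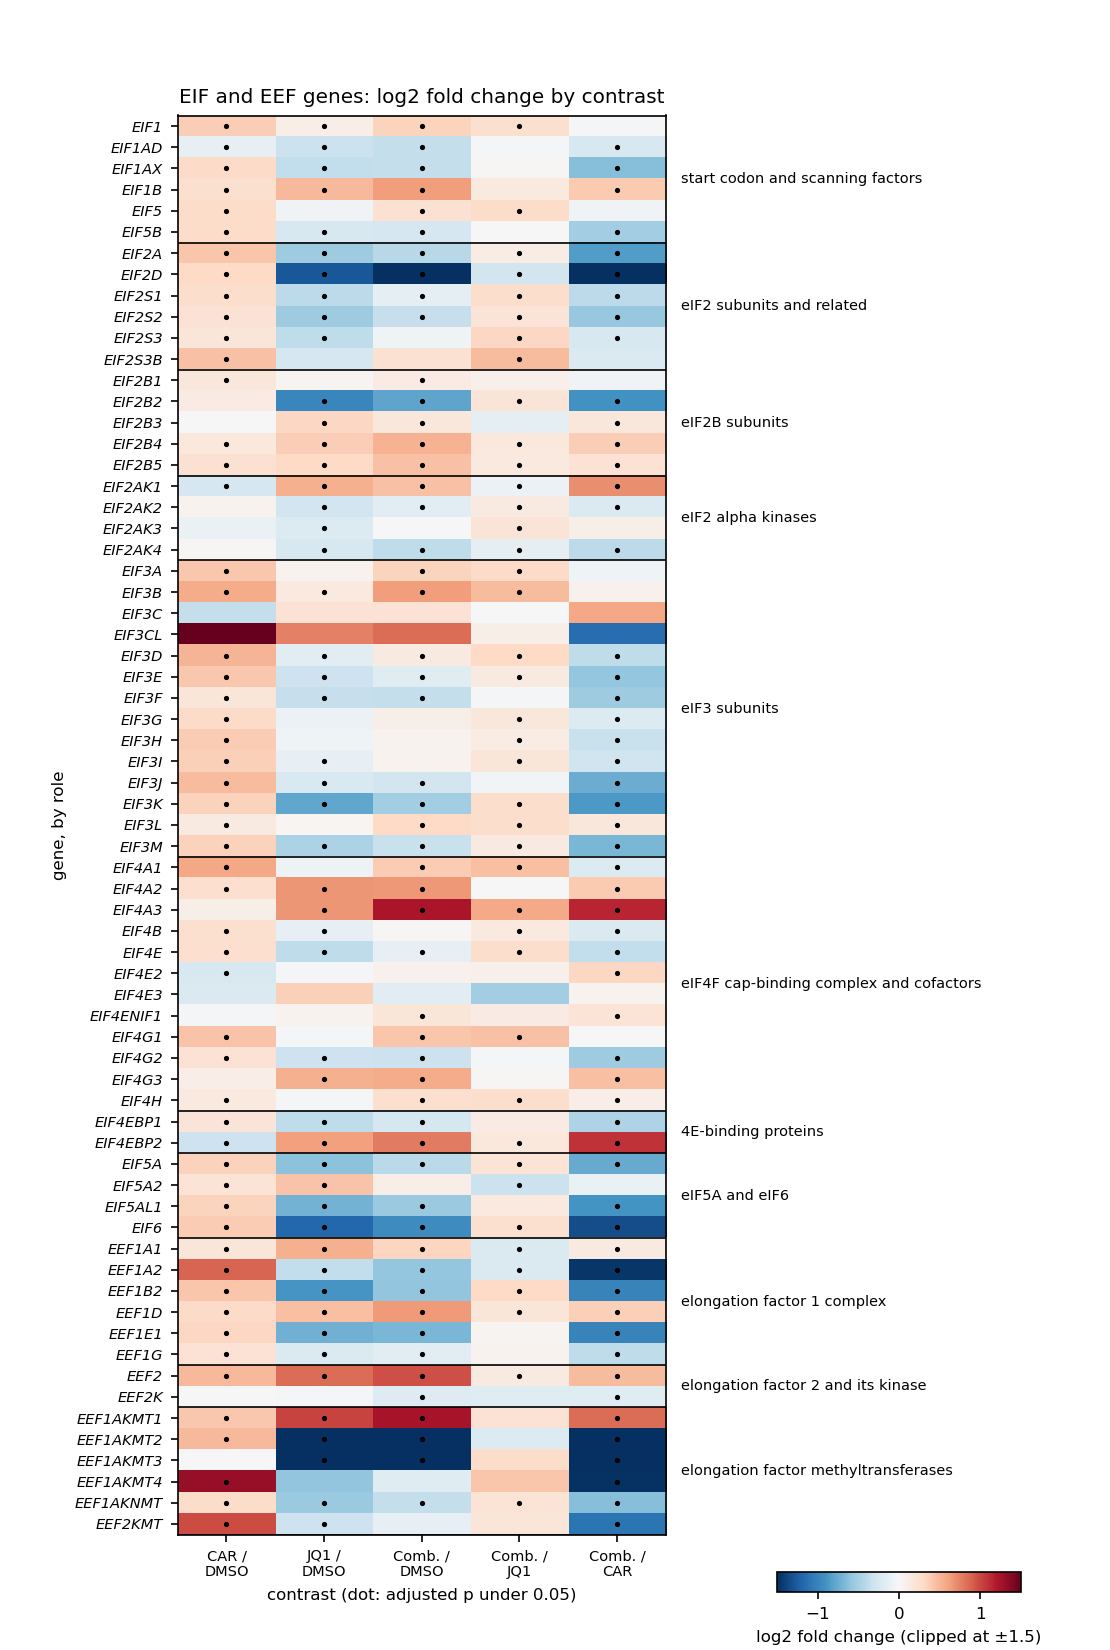
Log2 fold change of each of the 67 tested members (rows, grouped by role) in 5 contrasts (columns, named as one group over the other), coloured blue for lower and red for higher, with the colour scale ending at 1.5 on either side and a dot where the adjusted p was under 0.05. The CAR column is red with dots in 50 rows, while the JQ1 column has 16 red and 34 blue rows with dots.

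Read together over the 3 comparisons with DMSO, the members fell into a few patterns. The most common, with 23 members, was higher in CAR, lower in JQ1 and lower in Combination cells, and it held EIF2S1, EIF2S2, EIF3E, EIF4E, EIF5A, EIF6, EEF1B2 and EEF1G among others. A further 10 members were higher in all treatments, among them EEF1A1, EEF2, EIF3B and EIF4A2. In 7 members, including EIF4A1, EIF4G1 and EIF3A, the level was higher in CAR and Combination cells and not called in JQ1 cells. EIF4EBP2 and EIF2AK1 had the opposite order, lower in CAR and higher in JQ1 and Combination cells. EIF1AD was the sole member called lower in all treatments, and EIF3C, EIF3CL and EIF4E3 were called in none. By single comparison, 27.3% of all genes were higher in CAR, 42.2% lower in JQ1 and 42.8% lower in Combination cells. The share of all genes with each joint pattern was not counted, and the 3 comparisons share the DMSO libraries.

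The start codon and scanning factors were called higher in CAR cells in 5 of 6 genes, beside 27.3% of all genes. EIF1, which keeps the scanning ribosome from starting at wrong codons, had 465, 473 and 464 CPM in CAR, 380.3, 389.7 and 390.1 in JQ1, 452, 468 and 449.6 in Combination and 354, 351 and 381 CPM in DMSO cells. The CAR and Combination libraries were all above those of JQ1 and DMSO, which overlapped. The log2 fold change was 0.37 (SE 0.04, edgeR adjusted p = 3.14e-08) in CAR against DMSO and 0.24 (SE 0.04, adjusted p = 1.39e-05) in Combination against JQ1 cells, while that of JQ1 against DMSO was 0.10 and became −0.02 on total counts. EIF1AX, which encodes eIF1A, rose by 0.29 in CAR cells and fell in JQ1 and Combination cells (−0.37 and −0.35). EIF5B, the GTPase that joins the large subunit, had a like order (0.27, −0.24 and −0.25). EIF5, the GTPase activator of eIF2, was higher in CAR (0.27) and Combination cells (0.23) and lay at −0.05 in JQ1 cells. EIF1B, a close relative of EIF1, was higher in all treatments (0.24, 0.49 and 0.63). EIF1AD, which encodes a protein with an eIF1A domain, had 62.4, 59.4 and 62.1 CPM in CAR, 52.2, 54.4 and 53.3 in JQ1, 50.8, 53.0 and 52.6 in Combination and 67.3, 65.8 and 66.9 CPM in DMSO cells. Every treated library was below those of DMSO cells, and the falls were called in CAR, JQ1 and Combination cells (−0.12, −0.32 and −0.36).

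Calls in this group that did not hold when a library was left out were small ones. They were EIF1 in JQ1 cells without JQ1 replicate 2 or 3 or DMSO replicate 1 or 2 (0.07 to 0.09), EIF1AD in CAR cells without CAR replicate 2 (−0.10) or DMSO replicate 1 (−0.12), and EIF1B in CAR cells without DMSO replicate 1 (0.15). EIF5B shares 852 exonic bases with REV1 on the opposite strand, and reads of such pairs may not be separated, because the sources used here do not state the strand setting of the counting. The same holds for EIF3M (742 bases, CCDC73), EIF2B1 (564, DDX55 and GTF2H3), EIF3L (391, ANKRD54) and EIF2S1 (253, ATP6V1D). Shorter overlaps of 19 to 146 bases lie in EEF1B2, EIF1AD, EIF2A, EIF2AK2, EIF3A, EIF3J and EIF4A2, and further ones are given with their genes below.

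EIF2S1, EIF2S2 and EIF2S3, the subunit genes of eIF2, rose in CAR cells and fell in JQ1 cells. With EIF2S3B, a copy of EIF2S3, and the separate factors EIF2A and EIF2D, all 6 genes were called higher in CAR against DMSO, and 5 were called lower and 0 higher in JQ1 against DMSO. The shares of all genes were 27.3% higher in CAR, and 42.2% lower and 41.5% higher in JQ1 cells. EIF2S1, the alpha subunit that stress kinases phosphorylate, had 194, 194 and 193 CPM in CAR, 126, 122 and 120.5 in JQ1, 146, 146 and 149 in Combination and 158, 155 and 170.3 CPM in DMSO cells. The 4 groups did not overlap, with CAR highest, then DMSO, Combination and JQ1. Its log2 fold change was 0.27 (SE 0.04, edgeR adjusted p = 6.06e-06) in CAR, −0.39 (SE 0.04, adjusted p = 7.76e-09) in JQ1 and −0.13 (SE 0.04, adjusted p = 0.00474) in Combination cells. The beta subunit gene EIF2S2 changed by 0.22, −0.54 and −0.35, and the gamma subunit gene EIF2S3 by 0.18 in CAR and −0.38 in JQ1 cells, with −0.06 and no call in Combination cells. EIF2S3 was among the 6 largest rises of Combination over JQ1 cells, with 121, 122 and 114 CPM against 96.2, 95.3 and 95.5 CPM in JQ1 cells and a log2 fold change of 0.32 (SE 0.04, edgeR adjusted p = 1.5e-06).

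EIF2A and EIF2D encode separate proteins that can bring initiator tRNA to the ribosome without eIF2. EIF2A changed by 0.42 in CAR, −0.53 in JQ1 and −0.42 in Combination cells against DMSO. EIF2D had 97.7, 95.4 and 96.5 CPM in CAR, 31.1, 34.9 and 31.6 in JQ1, 24.8, 27.1 and 28.9 in Combination and 76.4, 77.3 and 81.7 CPM in DMSO cells. The libraries formed 4 separate ranges, with those of Combination cells lowest. Against DMSO it rose 1.23-fold in CAR cells (edgeR adjusted p = 2.5e-05) and was 2.41-fold lower in JQ1 (adjusted p = 2.59e-15) and 2.91-fold lower in Combination cells (adjusted p = 1.29e-16). EIF2S3B, a near-identical autosomal copy of EIF2S3 at 1.8 to 4.01 CPM, was called in CAR against DMSO (0.44) and Combination against JQ1 cells (0.48), but reads may be split between the copies. The first call was lost without CAR replicate 2 or 3 or DMSO replicate 1 or 3 (0.34 to 0.40), and the second without any library but Combination replicate 1 (0.36 to 0.55). The call of EIF2A in Combination against JQ1 cells (0.11) was lost without any JQ1 library or without Combination replicate 1 or 2 (0.09 to 0.13).

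The guanine nucleotide exchange factor eIF2B recharges eIF2 with GTP, and its 5 subunit genes did not move together. EIF2B5, the catalytic epsilon subunit, was higher in all treatments. It had 91.45, 91.28 and 92.04 CPM in CAR, 95.7, 93.3 and 98.9 in JQ1, 104, 101 and 113 in Combination and 76.6, 80.5 and 77.4 CPM in DMSO cells. Every treated library lay above the DMSO libraries, and the log2 fold changes were 0.23, 0.30 and 0.44 (SE 0.04 to 0.05, edgeR adjusted p = 0.000183, 3.13e-06 and 6.5e-09). EIF2B4, the delta subunit, had the same order (0.16, 0.37 and 0.53). EIF2B2, the beta subunit, went the other way. Its level was 75.8, 76.5 and 84.0 CPM in CAR, 37.4, 36.0 and 36.9 in JQ1, 44.5, 40.8 and 40.5 in Combination and 68.1, 72.2 and 77.1 CPM in DMSO cells. CAR and DMSO libraries overlapped, and those of JQ1 and Combination lay below both. JQ1 cells were 1.97-fold lower than DMSO cells (adjusted p = 5.69e-13) and Combination cells 1.73-fold lower (adjusted p = 1.96e-11). EIF2B3 rose by 0.31 in JQ1 cells, while its 0.18 and the 0.12 of EIF2B1 in Combination against DMSO cells turned to −0.03 and −0.09 on total counts. Calls lost when a library was left out were EIF2B1 in Combination against DMSO cells (Combination replicate 2 or DMSO replicate 1 or 2, 0.07 to 0.11), EIF2B3 in the same comparison (Combination replicate 2 or 3 or DMSO replicate 1 or 2, 0.12 to 0.18) EIF2B3 in Combination against CAR cells (CAR replicate 2 or 3 or Combination replicate 2 or 3, 0.12 to 0.17) and EIF2B4 in CAR cells (CAR replicate 1 or 3 or DMSO replicate 1 or 2, 0.11 to 0.14). In Combination against JQ1 cells they were EIF2B2 (JQ1 replicate 2 or Combination replicate 1, 0.14 to 0.17), EIF2B4 (JQ1 replicate 2 or 3 or any Combination library, 0.13 to 0.17) and EIF2B5 (Combination replicate 3, 0.10).

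Of the 4 kinases that phosphorylate eIF2 alpha, 0 were called higher and 1 lower in CAR against DMSO, beside 27.3% and 30.1% of all genes. In JQ1 against DMSO, 1 was called higher and 3 lower, beside 41.5% and 42.2% of all genes. EIF2AK1, the haem-regulated kinase HRI, had 147, 149 and 147 CPM in CAR, 254, 251 and 259 in JQ1, 239, 240 and 238 in Combination and 178, 170 and 180.2 CPM in DMSO cells. CAR libraries lay below DMSO and those of JQ1 and Combination above it, with log2 fold changes of −0.25 (edgeR adjusted p = 4.01e-06), 0.53 (adjusted p = 4.03e-12) and 0.44 (adjusted p = 1.01e-10). It shares 532 exonic bases with AIMP2 on the opposite strand. EIF2AK3, the endoplasmic reticulum kinase PERK, had 22.7, 22.3 and 23.8 CPM in CAR, 22.1, 20.8 and 20.8 in JQ1, 26.6, 23.3 and 23.1 in Combination and 24.0, 26.1 and 23.5 CPM in DMSO cells. JQ1 libraries lay below all others, which overlapped. The log2 fold change in JQ1 cells was −0.21 (SE 0.07, adjusted p = 0.0086), and the differences of CAR and Combination from DMSO cells (−0.10 and −0.01) were not called on TMM and were called lower on total counts (−0.16 and −0.22). EIF2AK4, the amino acid sensor GCN2, had 153, 151 and 154 CPM in CAR, 129, 128 and 127 in JQ1, 121, 114 and 114 in Combination and 156, 159.6 and 138 CPM in DMSO cells. Combination libraries were lowest and JQ1 libraries next, both below the overlapping CAR and DMSO ranges, and the changes against DMSO were −0.24 in JQ1 and −0.38 in Combination cells. EIF2AK2, the kinase PKR that senses double-stranded RNA, was also lower in JQ1 (−0.29) and Combination cells (−0.16). In Combination against JQ1 cells the calls of all 4 kinases (−0.09, 0.13, 0.20 and −0.14 in numerical order) did not hold. That of EIF2AK1 was lost without any of the 6 libraries (−0.10 to −0.08), that of EIF2AK2 without any but JQ1 replicate 2 (0.10 to 0.13), that of EIF2AK3 without JQ1 replicate 2 or 3 (0.18) or Combination replicate 1 (0.13), and that of EIF2AK4 without Combination replicate 2 or 3 (−0.13). EIF2AK3 lay at 0.09 in Combination against CAR cells, not called, and at −0.06 there on total counts.

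The eIF3 complex, the largest initiation factor, had most of its subunit genes higher in CAR cells. Of 14 subunit genes, 12 were called higher and 0 lower in CAR against DMSO, 1 higher and 7 lower in JQ1 against DMSO, and 4 higher and 5 lower in Combination against DMSO. All genes were called higher in 27.3% for CAR, and lower in 42.2% for JQ1 and 42.8% for Combination. In Combination against JQ1 cells 10 were higher and 0 lower, beside 26.0% and 25.9% of all genes. Against CAR cells 1 was higher and 9 lower, beside 42.4% and 43.0% of all genes. EIF3A, the large scaffold subunit, had 693, 738 and 711 CPM in CAR, 564, 577 and 541 in JQ1, 696, 671 and 686 in Combination and 558, 537 and 529.5 CPM in DMSO cells. CAR and Combination libraries overlapped each other and lay above JQ1 and DMSO libraries, which also overlapped. The log2 fold change was 0.40 (SE 0.04, edgeR adjusted p = 9.65e-09) in CAR and 0.34 (SE 0.04, adjusted p = 2.1e-08) in Combination cells, and the uncalled 0.05 of JQ1 cells became −0.07 on total counts and −0.01 with upper-quartile scaling.

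EIF3B, a core scaffold subunit beside EIF3A, had 485, 489 and 490.4 CPM in CAR, 378, 361 and 364 in JQ1, 509, 508 and 515 in Combination and 323, 316 and 355 CPM in DMSO cells. All treated libraries lay above the DMSO libraries, and the Combination libraries were highest. It rose by 0.56 in CAR (edgeR adjusted p = 1.86e-10), 0.15 in JQ1 (adjusted p = 0.0017) and 0.62 in Combination cells (adjusted p = 2.27e-12), and by 0.47 in Combination over JQ1 cells (adjusted p = 2.72e-09). The call in JQ1 cells was lost on total counts, at 0.03, and with upper-quartile scaling, at 0.09. EIF3D, a subunit with cap-binding activity of its own, had 352, 364 and 352 CPM in CAR, 224, 221 and 222 in JQ1, 271, 282 and 270.5 in Combination and 246, 239.8 and 264 CPM in DMSO cells. No groups overlapped, with log2 fold changes of 0.51 (edgeR adjusted p = 3.95e-10), −0.17 (adjusted p = 0.000455) and 0.13 (adjusted p = 0.00293), the last of which turned to −0.07 on total counts. In Combination over JQ1 cells the difference was 0.30 (adjusted p = 1.37e-06).

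EIF3E, EIF3F, EIF3J, EIF3K and EIF3M were the subunit genes lower in both JQ1 and Combination cells. The lowest fold change among them in JQ1 cells was that of EIF3K, whose level was 150 ± 5.63 CPM in CAR, 69.1 ± 3 in JQ1, 82.7 ± 4.09 in Combination and 118 ± 10.9 CPM in DMSO cells (SD, n = 3 each). The log2 fold changes of EIF3K were 0.34, −0.78 and −0.52 against DMSO. EIF3G, EIF3H and EIF3I, of which the first binds RNA, rose in CAR cells by 0.29, 0.38 and 0.36 and lay between −0.12 and −0.06 in JQ1 cells, where EIF3I alone was called. EIF3L rose by 0.13 in CAR and 0.30 in Combination cells. EIF3C and EIF3CL are near-identical copies on chromosome 16 among which reads can be split at random, so neither is interpreted. Their levels ran from 10.5 to 38.7 and from 3.45 to 40.0 CPM with no call. Without 1 library, calls were lost for EIF3L in CAR cells (DMSO replicate 1, 0.10), for EIF3I in JQ1 cells (JQ1 replicate 2, −0.09), for EIF3H in Combination against JQ1 cells (JQ1 replicate 2 or 3 or Combination replicate 2, 0.10 to 0.11), and for EIF3M in that comparison (any library but Combination replicate 3, 0.12 to 0.15).

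**Figure D2:**
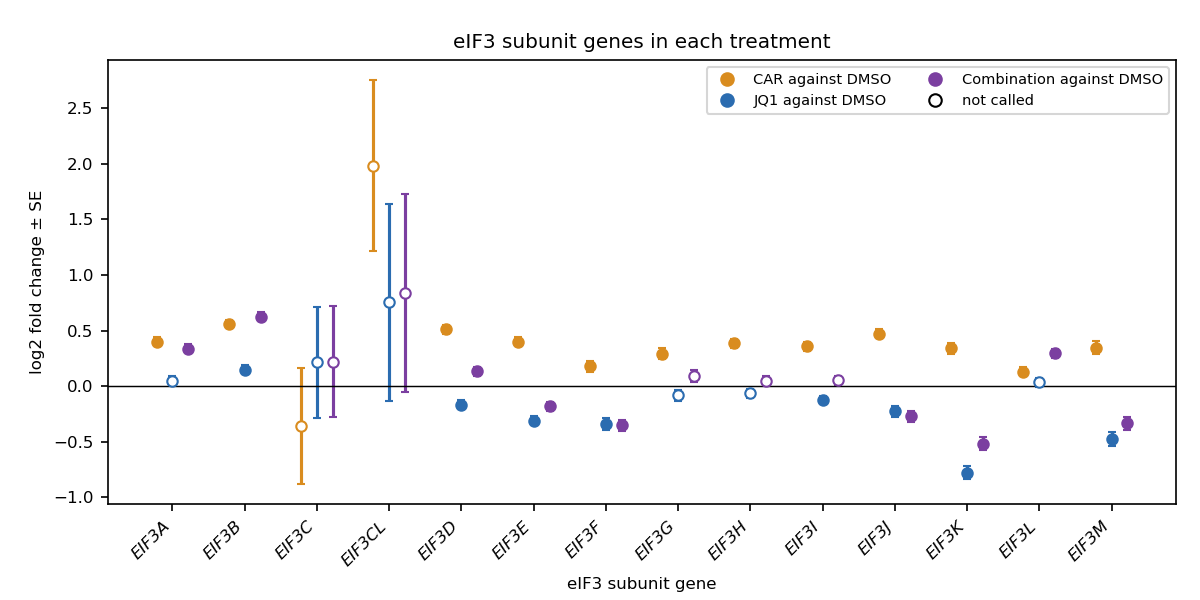
Log2 fold change with its SE (vertical axis) of the 14 eIF3 subunit genes (horizontal axis) in CAR, JQ1 and Combination cells against DMSO, with filled points where the adjusted p was under 0.05. The filled CAR points of 12 subunits lie between 0.13 and 0.56, while the JQ1 points of EIF3K and EIF3M lie at −0.78 and −0.48.

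The eIF4F genes did not share a direction in JQ1 and Combination cells. EIF4E, EIF4A1, EIF4A2 and EIF4G1 were all called higher in CAR cells. In JQ1 cells EIF4E was called lower, EIF4A2 higher, and EIF4A1 and EIF4G1 were not called. In Combination cells EIF4E was called lower and EIF4A1, EIF4A2 and EIF4G1 higher. EIF4E, which binds the cap, had 67.7, 72.5 and 68.3 CPM in CAR, 48.2, 43.9 and 42.7 in JQ1, 54.8, 52.5 and 54.4 in Combination and 55.6, 59.3 and 60.6 CPM in DMSO cells. No groups overlapped, with CAR libraries highest and JQ1 libraries lowest, and with log2 fold changes of 0.25 (SE 0.05, edgeR adjusted p = 0.000272) and −0.38 (SE 0.05, adjusted p = 1.02e-06). In Combination against DMSO cells it was −0.12 (adjusted p = 0.0437). That last call was lost without any Combination library, without DMSO replicate 2 or 3 (−0.13 to −0.09), and in the fit with replicate number as a block (adjusted p = 0.0561).

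EIF4A1, the main helicase of eIF4F, had 2058, 2168 and 2065 CPM in CAR, 1337, 1320 and 1336 in JQ1, 1795, 1862 and 1790 in Combination and 1370, 1361 and 1469 CPM in DMSO cells. CAR libraries were highest, Combination libraries next, and every DMSO library was above those of JQ1. The rise was 1.5-fold in CAR (edgeR adjusted p = 2.18e-11) and 1.3-fold in Combination cells (adjusted p = 2.69e-09), while JQ1 cells lay at a log2 of −0.07 with no call (adjusted p = 0.0653). That last difference was called lower with DESeq2 size factors and the DESeq2 Wald test (both −0.08), upper-quartile scaling (−0.13), total counts (−0.19), and without DMSO replicate 1 or 2 (both −0.09). EIF4A2, a paralogue with the same activity, had 289, 282 and 301 CPM in CAR, 382, 390.2 and 379.5 in JQ1, 385, 381 and 380.5 in Combination and 239.5, 236 and 255 CPM in DMSO cells. Its order was different, with JQ1 and Combination libraries overlapping at the top and CAR libraries between them and DMSO. The log2 fold changes were 0.26 (adjusted p = 6.52e-06), 0.66 (adjusted p = 3.51e-13) and 0.65 (adjusted p = 4.02e-13) in edgeR's test.

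EIF4A3 encodes a related helicase that works in the exon junction complex in the nucleus rather than at the cap. It had 150.3, 146 and 147 CPM in CAR, 222, 212 and 222 in JQ1, 328, 331 and 316 in Combination and 138, 132 and 146 CPM in DMSO cells. CAR and DMSO libraries overlapped, JQ1 libraries lay above both, and Combination libraries above all others. Combination cells were 2.35-fold higher than DMSO (edgeR adjusted p = 1.65e-17), 1.49-fold higher than JQ1 (adjusted p = 1.3e-10) and 2.2-fold higher than CAR cells (adjusted p = 5.27e-17). Its promoter sequence, printed above, holds 1 E-box, as a description only.

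EIF4G1, the main scaffold, had 1211, 1203 and 1183 CPM in CAR, 886, 878 and 877 in JQ1, 1201, 1198 and 1176 in Combination and 882, 901 and 887 CPM in DMSO cells. The libraries fell into a high pair of groups, CAR and Combination, and a low pair, JQ1 and DMSO. The log2 fold change was 0.43 (SE 0.03, edgeR adjusted p = 2.14e-10) in CAR against DMSO and 0.44 (SE 0.03, adjusted p = 1.81e-10) in Combination against JQ1 cells, and JQ1 against DMSO lay at −0.02 with no call, though it was called lower on total counts (−0.14) and with upper-quartile scaling (−0.08). EIF4G3, a second scaffold gene, had 152, 153 and 159 CPM in CAR, 204, 213 and 209.7 in JQ1, 215, 209 and 211 in Combination and 157, 149.9 and 126 CPM in DMSO cells. JQ1 and Combination libraries overlapped each other above the CAR and DMSO ranges, in which DMSO replicate 3 was the lowest library. The gene rose in JQ1 (0.53) and Combination cells (0.55) and not in CAR cells (0.10, not called). EIF4G2, a scaffold that lacks the eIF4E site, was higher in CAR (0.21) and lower in JQ1 (−0.30) and Combination cells (−0.32).

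Of the helicase cofactors, EIF4B rose in CAR cells by 0.24 and fell in JQ1 cells by 0.12 on the log2 scale, and EIF4H rose in CAR (0.15) and Combination cells (0.24). The 0.10 of EIF4H in Combination against CAR cells became −0.05 on total counts, and lost its call without CAR replicate 1 or Combination replicate 2 (0.08). EIF4E2, a cap-binding paralogue linked to repression, had 53.2, 52.8 and 52.7 CPM in CAR, 62.8, 60.9 and 62.4 in JQ1, 66.2, 67.1 and 63.1 in Combination and 62.3, 63.1 and 62.6 CPM in DMSO cells. CAR libraries lay below all others, and JQ1 and Combination libraries each overlapped DMSO (−0.24, edgeR adjusted p = 5.32e-05 in CAR against DMSO, with JQ1 and Combination not called). EIF4E2 shares 541 exonic bases with TIGD1 on the opposite strand. EIF4ENIF1, which carries eIF4E into the nucleus, was at 0.19 in Combination against DMSO cells, turned to −0.02 on total counts, and lost its call without Combination replicate 2 (0.15) or DMSO replicate 1 (0.13). EIF4E3, another cap-binding paralogue, lay at 0.644 to 1.6 CPM and was not called in any comparison.

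The eIF4E-binding proteins moved in opposite directions. EIF4EBP1, which releases eIF4E when mTORC1 phosphorylates it, had 62.1, 65.8 and 64.5 CPM in CAR, 43.6, 39.3 and 45.9 in JQ1, 45.3, 50.2 and 44.3 in Combination and 49.3, 55.9 and 62.6 CPM in DMSO cells. JQ1 libraries were all below DMSO libraries, and the ranges of CAR and Combination each overlapped DMSO. The log2 fold change was −0.38 in JQ1 (SE 0.08, edgeR adjusted p = 0.000127) and −0.26 in Combination cells (adjusted p = 0.00333). In CAR cells it was 0.20 (adjusted p = 0.0264), a call lost without CAR replicate 2 or 3 or DMSO replicate 1 or 2 (0.11 to 0.20).

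EIF4EBP2, the second of these binding proteins, had 207, 194 and 202 CPM in CAR, 378, 381 and 382 in JQ1, 422, 433 and 422 in Combination and 255, 273 and 219 CPM in DMSO cells. No groups overlapped, and the order rose through CAR, DMSO, JQ1 and Combination. Its log2 fold change was −0.31 (SE 0.05, edgeR adjusted p = 8.76e-05) in CAR, 0.61 (SE 0.05, adjusted p = 2.39e-09) in JQ1 and 0.78 (SE 0.05, adjusted p = 5.53e-11) in Combination cells. Combination cells were 2.12-fold above CAR cells (adjusted p = 2.7e-13). The smaller step over JQ1 cells, 0.16, lost its call without Combination replicate 2 (0.15).

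eIF5A helps ribosomes through stalling sequences and carries the modified residue hypusine, and eIF6 keeps the large ribosomal subunit from joining too early. EIF5A had 966, 992 and 951 CPM in CAR, 495, 485 and 515 in JQ1, 562, 570.3 and 590.3 in Combination and 709.9, 745 and 832 CPM in DMSO cells. The groups did not overlap, and the log2 fold changes were 0.35 (SE 0.05, edgeR adjusted p = 1.41e-06), −0.61 (SE 0.05, adjusted p = 3.89e-11) and −0.41 (SE 0.05, adjusted p = 3.15e-08). EIF5AL1, a near-identical copy of EIF5A that can share its reads, followed it (0.34, −0.71 and −0.56). EIF5A2, the second isoform gene, instead rose by 0.43 in JQ1 cells and was 1.26-fold lower in Combination than in JQ1 cells, at 17.4, 18.2 and 18.6 CPM in Combination and 23.1, 24.0 and 21.0 CPM in JQ1 cells (edgeR adjusted p = 0.000502). Its rise in CAR cells (0.21) lost its call without CAR replicate 2 (0.16).

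EIF6 had 339.6, 330.1 and 313 CPM in CAR, 109.6, 111 and 112 in JQ1, 128, 131 and 133 in Combination and 239.7, 249.6 and 266 CPM in DMSO cells. CAR libraries were highest, DMSO next, and JQ1 and Combination libraries formed 2 narrow ranges well below. JQ1 cells were 2.27-fold lower (edgeR adjusted p = 1.23e-16) and Combination cells 1.93-fold lower than DMSO cells (adjusted p = 4.47e-15), while CAR cells were 1.3-fold higher (adjusted p = 9.81e-08).

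The elongation factor 1 group, in which EEF1E1 is counted by its name only, was called higher in CAR cells in all 6 genes. In JQ1 cells 2 were higher and 4, with EEF1E1, lower. Among all genes, 27.3% were higher in CAR cells, and 41.5% were higher and 42.2% lower in JQ1 cells. EEF1A1, which delivers aminoacyl-tRNA, lies at chr6:73515750-73523797 on the minus strand of GRCh38. It had 10770, 11020 and 10450 CPM in CAR, 13750, 13830 and 13580 in JQ1, 11700, 11900 and 11890 in Combination and 9249, 9068 and 10160 CPM in DMSO cells. JQ1 libraries were highest, then those of Combination, CAR and DMSO, with no overlap. The log2 fold change was 0.18 (SE 0.04, edgeR adjusted p = 0.000419) in CAR, 0.53 (SE 0.04, adjusted p = 1.94e-11) in JQ1 and 0.32 (SE 0.04, adjusted p = 9.43e-08) in Combination cells, and that of Combination against JQ1 cells was −0.21 (adjusted p = 7.54e-05). Its 0.14 in Combination against CAR cells became 0.00 on total counts. EEF1A1 has many processed pseudogenes, to which the counting may have lost or gained reads.

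EEF1A2, the isoform known from neurons and muscle and found raised in some tumours, lies at chr20:63488012-63499322 on the minus strand. It had 45.4, 43.5 and 45.5 CPM in CAR, 18.2, 17.3 and 21.3 in JQ1, 16.8, 15.7 and 16.4 in Combination and 23.7, 22.3 and 26.9 CPM in DMSO cells. The CAR libraries were about 1.84 times the DMSO level, and JQ1 and Combination libraries lay below DMSO. The log2 fold changes were 0.88 (SE 0.07, edgeR adjusted p = 9.78e-10), −0.37 (SE 0.08, adjusted p = 0.000211) and −0.58 (SE 0.08, adjusted p = 9.63e-07). Combination cells were 2.75-fold below CAR cells (adjusted p = 5.18e-14). The −0.21 against JQ1 cells lost its call without JQ1 replicate 3 (−0.12) or any Combination library (−0.23 to −0.19).

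The exchange factor subunits, which reload eEF1A with GTP, did not share a direction in JQ1 cells. EEF1B2, an exchange subunit, had 316, 352 and 323 CPM in CAR, 138, 132 and 134 in JQ1, 172, 161 and 162 in Combination and 234, 236 and 274 CPM in DMSO cells. The groups were separate, with JQ1 cells 1.84-fold (edgeR adjusted p = 4.45e-12) and Combination cells 1.5-fold (adjusted p = 2.58e-09) lower than DMSO, and CAR cells 1.33-fold higher (adjusted p = 1.5e-06). EEF1D, a second exchange subunit, rose instead, to 487, 492 and 493 CPM in Combination cells, against 313, 288 and 348 CPM in DMSO cells, without overlap. Its log2 fold changes were 0.28 in CAR, 0.45 in JQ1 and 0.63 in Combination cells (edgeR adjusted p = 1.16e-10 for Combination). EEF1G, the gamma subunit, changed by 0.21, −0.22 and −0.17. EEF1E1 is not an exchange subunit but a scaffold of the aminoacyl-tRNA synthetase complex. It had 31.4, 29.6 and 33.2 CPM in Combination and 50.6, 48.2 and 52.6 CPM in DMSO cells, with log2 fold changes of 0.31, −0.72 and −0.68 (edgeR adjusted p = 7.9e-10 for Combination).

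EEF2, the GTPase that translocates the ribosome, lies at chr19:3976056-3985469 on the minus strand and was higher in every treatment. It had 993, 989.5 and 981 CPM in CAR, 1230, 1260 and 1276 in JQ1, 1349, 1404 and 1374 in Combination and 703, 708 and 700.4 CPM in DMSO cells. The 4 groups were separate and narrow, in the order DMSO, CAR, JQ1 and Combination. The rises over DMSO were 1.4-fold in CAR (edgeR adjusted p = 4.48e-11), 1.78-fold in JQ1 (adjusted p = 2.78e-16) and 1.95-fold in Combination cells (adjusted p = 1.9e-17). EEF2K, the kinase that switches eEF2 off, had 25.4, 26.9 and 24.5 CPM in CAR, 25.1, 25.2 and 26.3 in JQ1, 20.3, 23.1 and 24.1 in Combination and 26.5, 27.9 and 23.0 CPM in DMSO cells. Combination libraries lay below those of CAR and JQ1, all other pairs of groups overlapped, and CAR and JQ1 cells were not called against DMSO (−0.01 and −0.01). Combination cells were called lower than DMSO (−0.20, edgeR adjusted p = 0.0209), a call lost without Combination replicate 1 (−0.13) or DMSO replicate 1 or 2 (−0.18 and −0.14). The call against CAR cells (−0.19) was lost without CAR replicate 2 (−0.15) or Combination replicate 1 (−0.12).

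**Figure D3:**
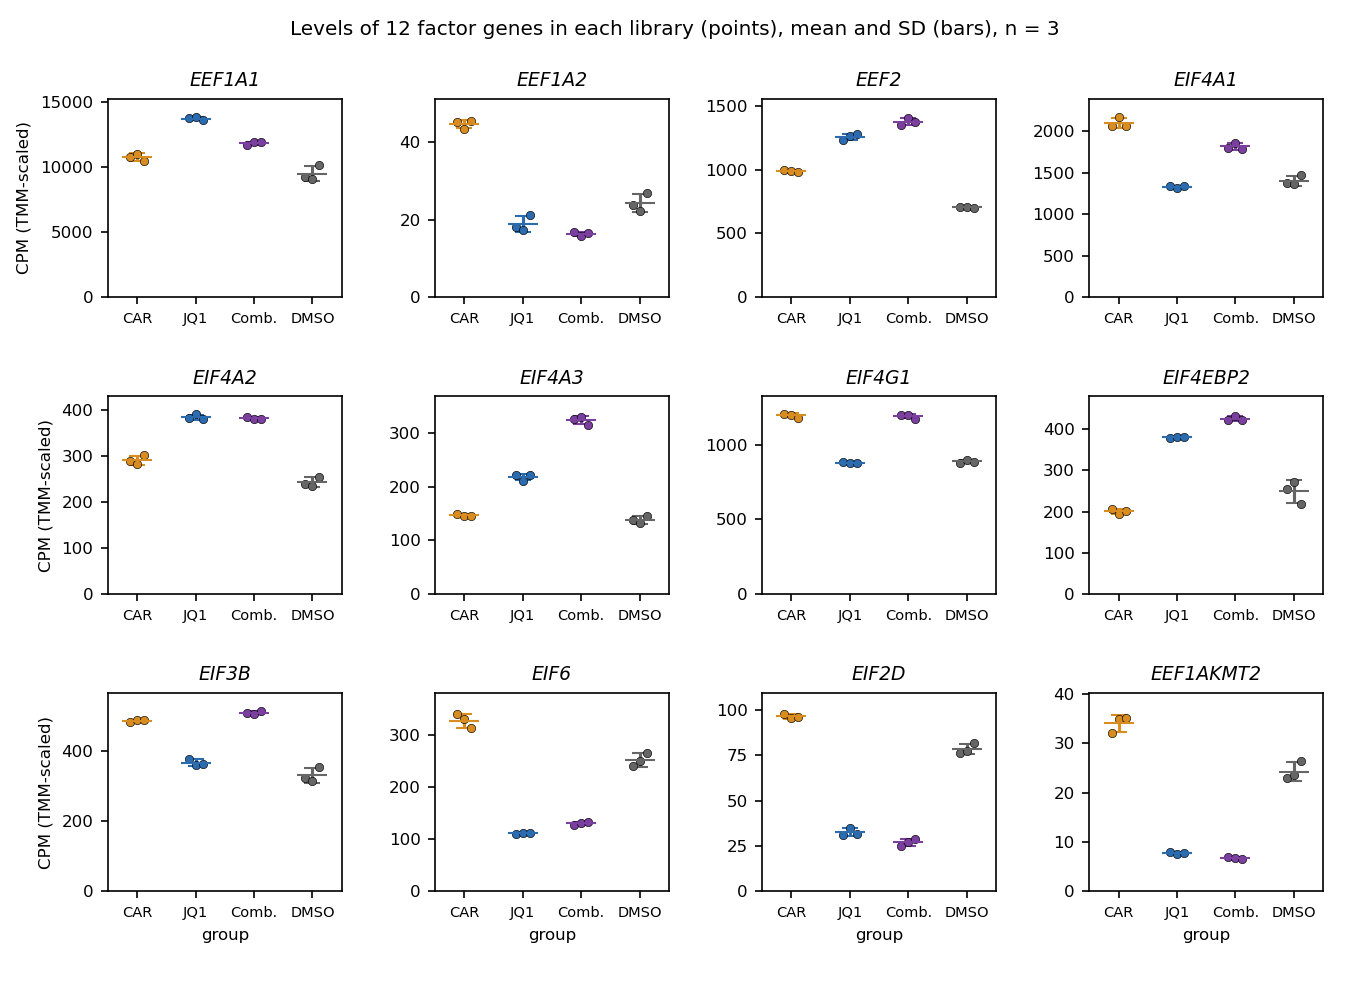
Level of 12 factor genes (vertical axes, TMM-scaled CPM starting at 0) in each library of the CAR, JQ1, Combination and DMSO groups (horizontal axes), with points for libraries and bars for the mean and SD of 3. EEF2 rises in steps to 1376 CPM in Combination, against 704 CPM in DMSO cells, while EIF6, EIF2D and EEF1AKMT2 sit low in JQ1 and Combination cells.

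The enzymes that methylate the elongation factors held the largest falls of all members in JQ1 and Combination cells against DMSO. EEF1AKMT2, a lysine methyltransferase of eEF1A, had 32.1, 34.9 and 35.2 CPM in CAR, 7.89, 7.62 and 7.63 in JQ1, 6.91, 6.74 and 6.44 in Combination and 22.9, 23.5 and 26.4 CPM in DMSO cells. CAR libraries were all above DMSO, and JQ1 and Combination libraries were far below it. JQ1 cells were 3.14-fold (edgeR adjusted p = 1.73e-14) and Combination cells 3.62-fold lower than DMSO (adjusted p = 3.86e-15), CAR cells were 1.4-fold higher (adjusted p = 1.03e-06), and Combination cells were 5.08-fold below CAR cells (adjusted p = 2.58e-17). EEF1AKMT3, another of these enzymes, had 9.3, 10.2 and 10.2 CPM in CAR, 2.93, 1.93 and 2.1 in JQ1, 3.54, 2.03 and 2.87 in Combination and 9.62, 9.99 and 9.92 CPM in DMSO cells. CAR libraries overlapped DMSO, and those of JQ1 and Combination lay far below. The falls were 4.21-fold in JQ1 (edgeR adjusted p = 1.71e-11) and 3.49-fold in Combination cells (adjusted p = 1.16e-10). EEF1AKMT3 shares 392 exonic bases with METTL1 on the opposite strand.

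EEF1AKMT1 rose where these fell. It had 4.11, 3.44 and 3.85 CPM in CAR, 5.28, 5.86 and 6.35 in JQ1, 6.91, 6.57 and 6.85 in Combination and 2.22, 2.98 and 3.42 CPM in DMSO cells. Libraries of JQ1 and Combination cells were all above DMSO, by 2.02-fold (edgeR adjusted p = 1.05e-06) and 2.36-fold (adjusted p = 3.98e-08). In CAR cells its 0.40 (adjusted p = 0.0284) lost its call without CAR replicate 1 or 3 or DMSO replicate 1 (0.24 to 0.40). EEF1AKNMT, which methylates the N terminus and a lysine of eEF1A, changed by 0.28, −0.56 and −0.36 against DMSO in CAR, JQ1 and Combination cells.

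EEF2KMT, a methyltransferase of eEF2, had 18.2, 17.8 and 18.9 CPM in CAR, 7.79, 6.52 and 8.27 in JQ1, 9.1, 8.43 and 8.08 in Combination and 9.17, 7.97 and 10.7 CPM in DMSO cells. CAR libraries stood clear of all others at 1.97 times the DMSO level (edgeR adjusted p = 2e-08), and the other groups overlapped in part. Combination cells were 2.14-fold below CAR cells (adjusted p = 7.26e-10). The −0.31 of JQ1 cells lost its call without JQ1 replicate 2 (−0.21) or DMSO replicate 3 (−0.19). EEF2KMT shares 838 exonic bases with ALG1 and belongs to the FAM86 family, whose near-identical copies may take or give reads. EEF1AKMT4 was a low gene, at 1.88, 2.31 and 2.08 CPM in CAR and 0.937, 0.744 and 0.831 CPM in DMSO cells, called higher in CAR cells (1.31, SE 0.27, edgeR adjusted p = 0.000265), and it shares 373 exonic bases with CAMK2N2.

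Because counts of a pair of genes in the same library share its scaling, the share of the second paralogue was compared without reference to library size. EIF4A2 made up 12.3, 11.5 and 12.7% of the EIF4A1 and EIF4A2 counts in CAR, 22.2, 22.8 and 22.1% in JQ1, 17.6, 17 and 17.5% in Combination and 14.9, 14.7 and 14.8% in DMSO cells. The groups did not overlap, and each difference from DMSO had an exact two-sided permutation p of 0.1, the smallest that 3 against 3 libraries can give. EIF4E2 made up 43.2 ± 0.973% of its pair with EIF4E in CAR, 58 ± 1.39% in JQ1, 54.8 ± 1.2% in Combination and 51.7 ± 1.03% in DMSO cells (SD, n = 3 each), again without overlap (exact permutation p = 0.1). EIF4G3 took 11.4 ± 0.376%, 19.2 ± 0.425%, 15.1 ± 0.206% and 13.9 ± 1.37% of its pair with EIF4G1 in the same order of groups, with Combination and DMSO overlapping (exact permutation p = 0.2).

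EIF5A2 took 1.97% of its pair with EIF5A in CAR, 4.36% in JQ1, 3.05% in Combination and 2.17% in DMSO cells. EIF4EBP2 took 75.8 ± 1.1% of its pair with EIF4EBP1 in CAR, 89.9 ± 0.714% in JQ1, 90.1 ± 0.476% in Combination and 81.5 ± 3.26% in DMSO cells (SD, n = 3 each). The DMSO libraries had 83.8, 83 and 77.8%, with replicate 3 lowest. With a library left out, the difference of CAR from DMSO ran from −7.6 to −4.6 percentage points. EIF4EBP2 has 7257 exonic bases and EIF4EBP1 has 1020, and the part of the length trend in this share was not tested. Nor was it tested in the other pairs of unlike length. These are EIF5A2 and EIF5A (5593 and 2095 exonic bases), EIF4E2 and EIF4E (5230 and 12096), and EEF1A2 and EEF1A1 (2014 and 5148). EIF5A can also share reads with EIF5AL1. EEF1A2 took 0.415% of its pair with EEF1A1 in CAR, 0.138% in JQ1, 0.138% in Combination and 0.255% in DMSO cells. In JQ1 cells the second paralogue thus had a larger share than in DMSO cells in 5 of these 6 pairs, each without overlap, and a smaller one in the EEF1A pair. In CAR cells the share was smaller in 5 pairs, of which that of EIF5A2 overlapped DMSO (exact permutation p = 0.2), and larger in the EEF1A pair.

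**Figure D4:**
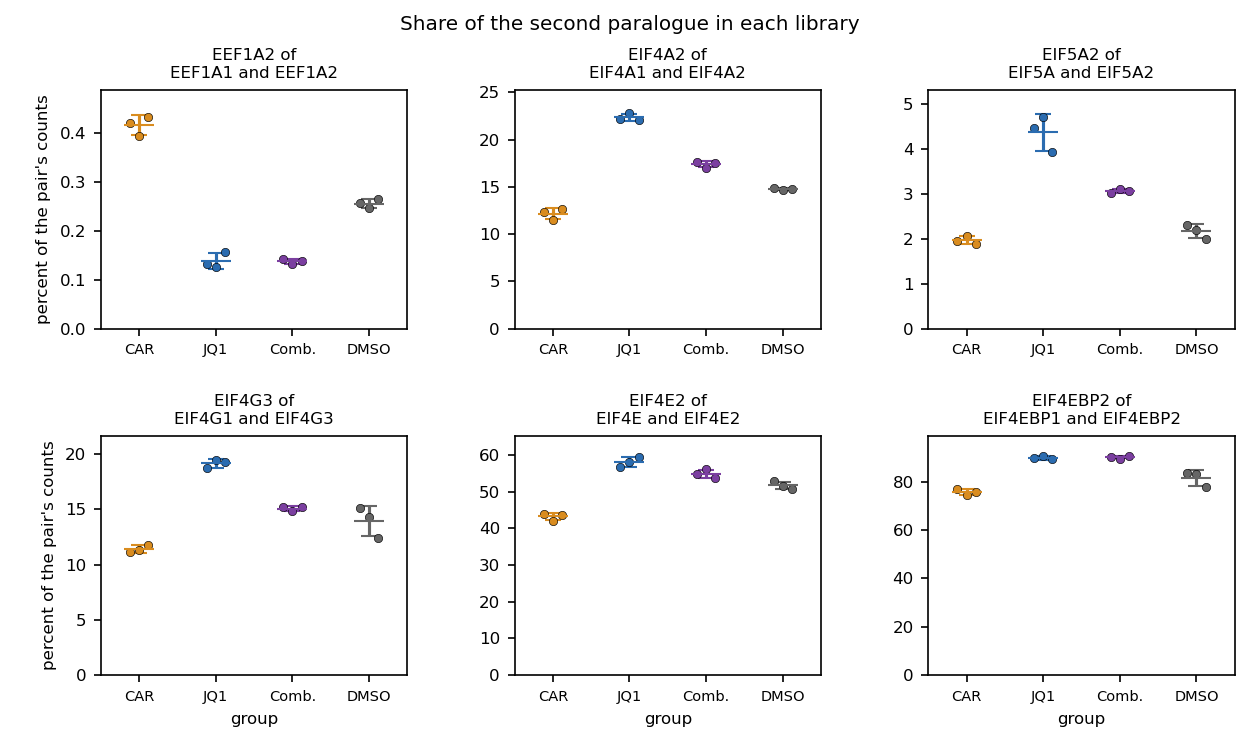
Share of the second paralogue among the counts of its pair (vertical axes, percent, starting at 0) in each library of the CAR, JQ1, Combination and DMSO groups, with points for libraries and bars for the mean and SD of 3. EIF4A2 stands at 22.4% in JQ1 and 12.2% in CAR, against 14.8% in DMSO cells, while EEF1A2 stands at 0.138% in JQ1 and 0.415% in CAR, against 0.255% in DMSO cells.

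All members together took 2.9, 2.96 and 2.88% of the counts in CAR, 2.71, 2.71 and 2.69% in JQ1, 2.55, 2.57 and 2.58% in Combination and 2.48, 2.46 and 2.67% in DMSO libraries. CAR and JQ1 libraries were above DMSO (exact permutation p = 0.1 each) and the Combination range overlapped it (exact p = 0.7). EEF1A1 alone took 1.1% in CAR, 1.35% in JQ1, 1.1% in Combination and 1.02% in DMSO libraries. Without it, an alternative chosen after the values were seen, the members took 1.8, 1.83 and 1.81% in CAR, 1.36, 1.35 and 1.35% in JQ1, 1.46, 1.47 and 1.47% in Combination and 1.49, 1.49 and 1.58% in DMSO libraries. The JQ1 group was then below DMSO, by 0.164 percentage points, instead of above it by 0.172.

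Per kilobase of exon, which allows genes to be set side by side, EEF1A1 had the highest level, at 2090 ± 56 CPM per kilobase in CAR, 2670 ± 25 in JQ1, 2300 ± 22 in Combination and 1840 ± 110 in DMSO cells (SD, n = 3 each). Next came EIF4A1 with 1190 ± 35, 758 ± 5.4, 1030 ± 23 and 797 ± 34 CPM per kilobase, and EEF1G, which was above EIF4A1 in DMSO cells, with 931 ± 16, 688 ± 7.6, 714 ± 20 and 802 ± 56. The 2 did not differ beyond their spread in DMSO cells. The cap-binding EIF4E lay far lower, at 5.75 ± 0.21 in CAR, 3.71 ± 0.24 in JQ1, 4.46 ± 0.098 in Combination and 4.84 ± 0.21 CPM per kilobase in DMSO cells. Lengths were the union of exons in the GENCODE annotation, so a gene with a long unused exon is set too low.

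The members with an annotated start on a pyrimidine tract, printed at the beginning, were all called higher in CAR cells. Which starts these cells used was not measured. That was 13 of 13, with a median of 0.34, against 25 higher and 3 lower of the 39 tested members with an entry and no tract, whose median was 0.21. EIF2S3B and EIF3F of the 13 lost their calls on total counts (0.38 and 0.11). So did EIF1B, EIF2B1, EIF2B4 and EIF5A2 among those without a tract. EIF2S3B and EIF2S3 are near-identical copies that may share reads, so they are not separate cases. In JQ1 cells 3 of the 13, EEF1A1, EEF2 and EIF4A2, were higher and 9 lower, with a median of −0.34, against 10 higher and 18 lower of the 39 at a median of −0.07. In Combination against JQ1 cells 9 of the 13 were higher and 2 lower, against 18 and 2 of the 39, and the median was 0.14 in both. Of the members with an E-box, 13 were tested, with 9 higher and 0 lower in CAR and 4 higher and 5 lower in JQ1 cells. Of 39 tested members with an entry and no E-box, 29 were higher and 3 lower in CAR, and 9 higher and 22 lower in JQ1 cells. Over all genes tested, CAR had 27.3% higher and 30.1% lower, JQ1 had 41.5% and 42.2%, and Combination against JQ1 had 26.0% and 25.9%. These counts are descriptions, and whether members with and without a tract or an E-box differ was not tested.

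The change with CAR can be followed with and without JQ1 present. Of the 50 members called higher in CAR against DMSO, 30 were also called higher in Combination against JQ1, a comparison that shares no library with the first, 16 were not called and 4 were lower. Of the 3449 genes called higher in CAR against DMSO, 50.7% were higher, 41.2% not called and 8.15% lower in the other comparison. The 4 members were EEF1A1, EEF1A2, EIF2D and EIF5A2. Of the 35 called higher in Combination against JQ1, the 30 were joined by EIF4EBP2, lower in CAR cells, and by EIF2AK2, EIF2AK3, EIF2B2 and EIF4A3, not called there. The change with JQ1 can be followed in the same way. Of 34 members lower in JQ1 against DMSO, 33 were lower in Combination against CAR, and of 16 higher, 13 were higher and 0 lower. Over all genes, 89.2% of the 5333 called lower were lower in both and 89.4% of the 5247 called higher were higher in both.

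The interaction, which is the change in Combination over JQ1 minus the change in CAR over DMSO, was called higher in 5 members and lower in 22, beside 20.1% and 18.2% of all genes (38.3% in either direction). On the high side it was largest in EIF4A3 (0.48, SE 0.06, edgeR adjusted p = 1.4e-06), where the change with CAR was 0.57 in the presence of JQ1 and 0.09 without it. EIF4EBP2 (0.47, adjusted p = 8.56e-05) and EIF4E2 (0.32, adjusted p = 0.000282) were called lower with CAR alone (−0.31 and −0.24) and lay at 0.16 and 0.08 with CAR over JQ1. EIF2AK3 (0.29, adjusted p = 0.0213 in edgeR's test) lost its call without CAR replicate 2, JQ1 replicate 2, Combination replicate 1 or DMSO replicate 2 (0.22 to 0.27). On the low side stood EEF1A2 (−1.09, SE 0.11, adjusted p = 1.77e-07), EEF2KMT (−0.79, adjusted p = 0.000277), EEF1AKMT2 (−0.69, adjusted p = 0.000114) and EIF2D (−0.57, adjusted p = 9.96e-06) by edgeR's test. EEF1A2 rose by 0.88 with CAR alone and lay at −0.21 with CAR over JQ1.

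By role, 7 of 14 eIF3 subunits were called lower in the interaction and 0 higher, beside 18.2% and 20.1% of all genes. The 14 include EIF3C and EIF3CL, which are not interpreted. In the elongation factor 1 group 4 of 6 were called lower and 0 higher. Of the 5 eIF2B subunits 0 were called, beside 38.3% of all genes in either direction. EIF3J had the lowest value among the eIF3 genes called (−0.52, SE 0.06, edgeR adjusted p = 2.93e-06). Without DMSO replicate 3, 8 members were called higher and 34 lower, and without Combination replicate 1, 4 higher and 19 lower. The shares of all genes called in those fits were not counted, so these shifts cannot be set beside those of all genes. Fits with a library left out kept the call of EIF3F (−0.19) only without CAR replicate 3, Combination replicate 2 or DMSO replicate 3, and that of EIF3M (−0.21) only without Combination replicate 2 or DMSO replicate 3. EIF4A1 (−0.13) kept its call only without CAR replicate 1, Combination replicate 2 or DMSO replicate 3, and lost it in the fit with replicate number as a block (adjusted p = 0.0543 in edgeR's test). EIF3I (−0.18) lost its call without CAR replicate 2 or DMSO replicate 1, EEF1E1 (−0.28) without JQ1 replicate 3 or Combination replicate 2, and EEF1G (−0.16) kept it only without CAR replicate 1 or 3, JQ1 replicate 2, Combination replicate 2 or DMSO replicate 3.

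**Figure D5:**
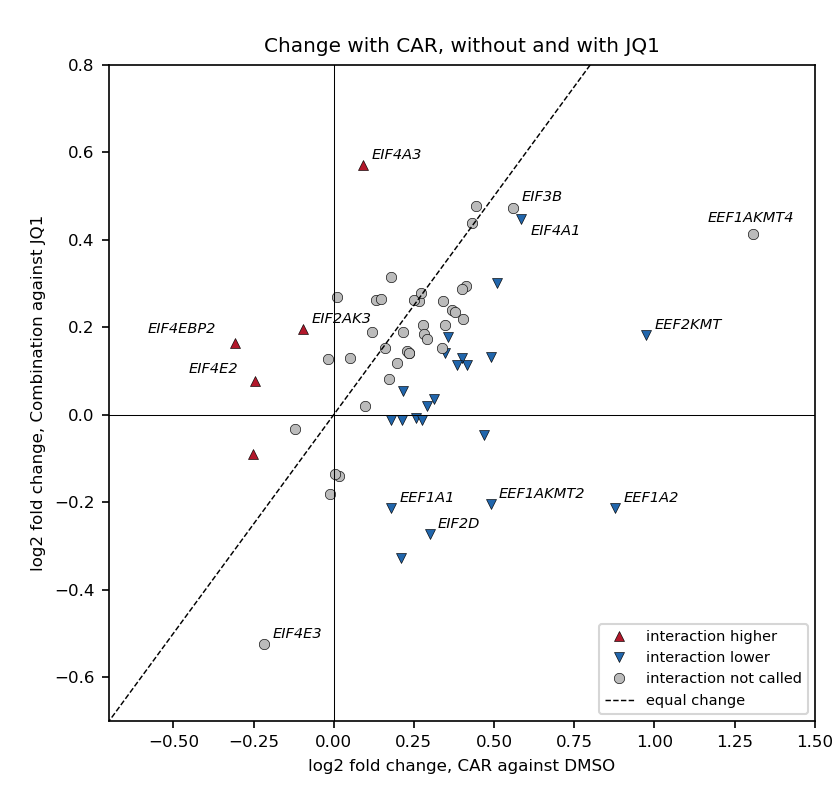
Log2 fold change of each member in CAR against DMSO (horizontal axis) and in Combination against JQ1 (vertical axis), with red triangles for a higher and blue triangles for a lower interaction, EIF3C and EIF3CL left out, and a dashed line for equal change. EIF4A3 lies well above the line (0.09 and 0.57), while EEF1A2 (0.88 and −0.21), EEF2KMT (0.97 and 0.18) and EEF1AKMT2 lie well below it.

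Other genes of the translation pathway, 59 in number and all tested, gave 30 higher and 9 lower for CAR against DMSO, 26 and 24 for JQ1, and 29 and 19 for Combination. Over all genes the shares were 27.3% higher and 30.1% lower for CAR, 41.5% and 42.2% for JQ1, and 42.6% and 42.8% for Combination. PPP1R15A, which brings the phosphatase to eIF2 alpha, averaged 176 ± 8.3 CPM in CAR, 109 ± 2.23 in JQ1, 198 ± 8.19 in Combination and 99.9 ± 3.46 CPM in DMSO cells (SD, n = 3 each). It rose 1.76-fold in CAR (edgeR adjusted p = 2.56e-12) and 1.81-fold in Combination over JQ1 cells (adjusted p = 9.19e-13). ATF4, the transcription factor whose translation is favoured when eIF2 is phosphorylated, averaged 324 ± 5.46 CPM in CAR, 125 ± 4.21 in JQ1, 151 ± 0.595 in Combination and 262 ± 23.5 CPM in DMSO cells. JQ1 cells were 2.1-fold lower (edgeR adjusted p = 7.01e-15) and CAR cells 1.24-fold higher than DMSO (adjusted p = 1.03e-05).

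PDCD4, which blocks the eIF4A helicase, fell by 0.74 on the log2 scale in CAR cells and rose by 0.71 in JQ1 cells (edgeR adjusted p = 1.03e-09 and 4.88e-11). PABPC1, the poly(A)-binding protein that contacts eIF4G, was higher in CAR, JQ1 and Combination cells (0.40, 0.51 and 0.47). MKNK2, a kinase of eIF4E, was 2.62-fold higher in JQ1 and 2.26-fold higher in Combination cells than in DMSO cells (edgeR adjusted p = 3e-17 and 5.61e-16) and lay at −0.04 in CAR cells.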

How the data were processed

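The authors deposited raw counts per gene symbol for each of the 12 libraries, made from polyadenylated RNA with a TruSeq Stranded mRNA kit per the labels' protocols. Trimmomatic, HISAT2, HTSeq and the build hg38 are named in the submitters' processing notes. Their versions, the annotation and the strand setting were not given in the sources used here. Symbols passing filterByExpr (minimum count 10, minimum total 15) entered edgeR 4.0.16 in R 4.3.3 with TMM scaling, 1 model over all 12 libraries (8 residual degrees of freedom) and a robust quasi-likelihood test, adjusted by Benjamini-Hochberg over 12645 genes. The common biological coefficient of variation was 0.0408. The script was tested on simulated data. Shares were compared by exact two-sided permutation tests.

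Members, lists and tests were chosen with earlier results of these data known. Per-library values are given for up to 6 called members in each direction of a comparison, with at least 5 CPM and groups that do not overlap, for up to 4 in each direction of the interaction, and for 16 chosen factors. Alternatives were DESeq2 1.42.0, other scalings, no filter, fits to the 2 groups alone, a replicate block and leaving out each library. Same-numbered libraries deviated together with correlations of −0.31 to 0.26, so the numbers were not used as pairs.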

Additional observations from a re-analysis of the deposited data

Results flagged for a closer look

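The change with CAR differed with and without JQ1 by edgeR's test of the interaction in 5 members on the high side and 22 on the low side. The shares of all genes were 20.1% and 18.2%. EIF4A3 had an interaction of 0.48, EIF4EBP2 of 0.47, EIF4E2 of 0.32 and EIF2AK3 of 0.29, each on the log2 scale. EEF1A2 had −1.09, EEF2KMT −0.79, EEF1AKMT2 −0.69 and EIF2D −0.57. ALB, a liver transcript outside the factor genes, had 1429 counts in Combination replicate 1 and 4 to 10 counts in the other libraries.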

How the results depend on the processing

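The members gave 280 called results over the 5 comparisons and the interaction. DESeq2 size factors kept 280 of them, the DESeq2 Wald test 267, no filter 277, upper-quartile scaling 261 and total count scaling 240, with 7 changes of sign. Fits to the 2 groups alone kept 246 of 253. Of 1842 values with a library left out, 142 lost their call, in 39 results. All alternatives together kept 44 of 54 calls for CAR, 46 of 50 for JQ1 and 45 of 53 for Combination against DMSO, 21 of 41 in Combination against JQ1, 48 of 55 in Combination against CAR, and 20 of 27 in the interaction. On total counts, Combination against JQ1 cells had 18 members higher and 13 lower, and Combination against CAR cells 11 higher. Of the calls over all genes, 32.9% and 43% were higher in these comparisons, against 50.1% and 49.6% on TMM. Upper-quartile scaling gave 8 members with a higher interaction. With a library left out, calls higher in CAR against DMSO ranged from 45 to 51 members, calls lower in Combination against JQ1 from 3 to 6, and interaction calls from 4 to 8 higher and 17 to 34 lower. The shares of all genes called with upper-quartile scaling or with a library left out were not counted.

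Signs that turned on total counts were EIF1 in JQ1 cells (−0.02), EIF3A in JQ1 cells (−0.07, and −0.01 with upper-quartile scaling), EIF2B1 (−0.09), EIF2B3 (−0.03), EIF3D (−0.07) and EIF4ENIF1 (−0.02) in Combination against DMSO cells, and EEF1A1 (0.00), EIF2AK3 (−0.06) and EIF4H (−0.05) in Combination against CAR cells. With a library left out, EEF2K ranged up to 0.05 in CAR (0.01 and 0.02 in other omissions) and 0.00 to 0.04 in JQ1 cells, EIF2AK3 lay between −0.08 and 0.03 in Combination against DMSO cells (0.02 in another omission), and EIF4A2 in Combination against JQ1 and EIF4G1 in Combination against CAR cells reached 0.00. None of these turned from a call but EIF1, EIF2B1, EIF2B3, EIF3D, EIF4ENIF1, EEF1A1 and EIF4H. The share of members without EEF1A1 differed by −0.164 points in JQ1 against DMSO, −0.0481 in Combination against DMSO and 0.116 in Combination against JQ1 cells. With a library left out, the member share in Combination against DMSO cells ranged from −0.00648 to 0.0999 points. In Combination against JQ1 cells the EEF1A2 share ranged from −0.00672 to 0.0092 (0.00277 without Combination replicate 2) and the EIF4EBP2 share from −0.00902 to 0.684. The cause of these shifts was not tested, beyond EEF1A1 being left out of the sum.

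With replicate number as a block, 2 calls were lost, EIF4A1 in the interaction (−0.13) and EIF4E in Combination against DMSO cells (−0.12), and the counts were 50 higher and 4 lower for CAR, 16 and 34 for JQ1, and 24 and 28 for Combination against DMSO. They were 35 and 6 in Combination against JQ1, 17 and 38 in Combination against CAR, and 5 and 21 in the interaction. The block changed no other call. Depth limits EIF4E3, EIF2S3B, EEF1AKMT4 and the 2 untested genes, which had few reads.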

Other observations

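The pathway genes around the factors can be read by list against DMSO, with log2 fold changes given for CAR, JQ1 and Combination cells in that order. Termination and recycling genes gave 6 higher and 1 lower of 8 for CAR, 2 and 6 for JQ1, and 2 and 4 for Combination, with ABCE1, which splits ribosomes, at 0.53, −0.99 and −0.85. HBS1L, a rescue factor for stalled ribosomes, rose in all treatments (0.31, 0.89 and 1.02). Hypusine and diphthamide enzymes, which modify eIF5A and eEF2, gave 4 higher and 0 lower of 9 for CAR, and 1 and 5 in JQ1 cells. DOHH, the hydroxylase that completes hypusine, changed by 0.48, −1.18 and −0.83, and the diphthamide enzyme DPH5 by 0.63, −1.15 and −1.11.

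The list of mTORC1, S6 kinase and MNK genes gave 4 higher and 2 lower of 13 for CAR, 7 and 5 for JQ1, and 8 and 2 for Combination. TSC1, a brake on mTORC1, was at −0.18, 1.25 and 1.46, and MKNK1, a kinase of eIF4E, at −0.12 in CAR and 1.27 in JQ1 cells. Poly(A) binding and eIF4A inhibitor genes gave 4 higher and 3 lower of 8 for CAR, and 5 and 2 in both JQ1 and Combination cells. LARP1, which binds the pyrimidine tracts described above, changed by 0.53 in CAR and −0.52 in JQ1 cells and lay at 0.05 in Combination cells. The eIF2 phosphatase and ATF4 list gave 8 higher and 2 lower of 12 for CAR, 7 and 3 for JQ1, and 7 and 4 for Combination. Mitochondrial and selenocysteine factors gave 4 higher and 1 lower of 9 for CAR, 4 and 3 for JQ1, and 5 and 3 for Combination, with EEFSEC, the selenocysteine elongation factor, at −0.81, 0.90 and 1.16. Over all genes tested, 27.3% were higher and 30.1% lower for CAR, 41.5% and 42.2% for JQ1, and 42.6% and 42.8% for Combination.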
